A study of Mus musculus with 4 samples.

Results

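The barcodes described here are those of a mouse tumor single-cell RNA sequencing experiment in which at least 200 genes were detected and more than 10% of the unique molecular identifiers (UMIs, counts of captured molecules) fell on the 13 genes of the mitochondrial genome. There were 102 of them among 4506 barcodes with at least 200 genes, and 5332 barcodes were deposited in all. The 4 samples came from Swiss albino mice injected intraperitoneally with Dalton's lymphoma ascites (DLA) cells, a transplantable mouse tumor line. Control 1 and Control 2 came from mice that the labels call untreated and the supplement describes as vehicle controls, and Treated 1 and Treated 2 came from mice given SP11, an inhibitor of the chaperone HSP90, orally at 30 mg/kg for 17 days. All 4 samples carry the same tumor graft, and tumor tissue was digested with collagenase IV and DNase I, with lysis of red blood cells, before droplet capture. The ages of the mice, and whether each sample was 1 animal, were not given in the sources used here, so p-values measure the spread between these samples.

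The mitochondrial genome is transcribed inside the organelle, and its messages stay behind the mitochondrial membranes, whereas most messages of the nuclear genome are exported and float in the cytosol. A cell whose outer membrane leaks is known to lose cytosolic RNA before the RNA held in organelles or in the nucleus, and a high mitochondrial share is therefore commonly used to remove damaged cells. Malat1 and Neat1, long noncoding RNAs of nuclear speckles and paraspeckles, stay in the nucleus and serve as markers of nuclear RNA, while messages of ribosomal proteins and of glycolytic enzymes are among the most abundant cytosolic RNAs.

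The high-mitochondrial barcodes made up 49 of 965 barcodes in Control 1 (5.08%, 95% exact Clopper-Pearson interval 3.78% to 6.66%) and 28 of 594 in Control 2 (4.71%, 3.15% to 6.74%). They made up 13 of 1844 barcodes in Treated 1 (0.705%, 0.376% to 1.20%) and 12 of 1103 in Treated 2 (1.09%, 0.563% to 1.89%). Both treated samples lay lower than both controls, by 4.00 percentage points on average, and the two-sided exact permutation test gave p = 0.333, the smallest that 2 samples against 2 allow. With the limit at 20% the difference, treated minus control, was -0.474 points and the groups overlapped (exact permutation p = 0.667). These intervals cover counting error only.

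The barcodes were selected on mitochondrial and total UMIs, so both are given as a description. Where 4 values follow each other here and below, those of both controls come first and those of both treated samples last, each pair by its number. The median mitochondrial share was 15.6%, 15.3%, 14.1% and 35.7%, with 79.3% as the highest of all barcodes. Above 20% lay 7, 8, 4 and 10 of them, so most of the treated barcodes far past the limit came from Treated 2. The 9 barcodes just above the limit, at 10.1% to 10.8%, had a median of 2374 UMIs from nuclear-encoded genes and a median Malat1 share of 3.22%. The 8 barcodes just under it, at 9.20% to 9.95%, had 1113 such UMIs and a Malat1 share of 1.12%. These 2 sets differ in samples, as Treated 1 gave 4 of the 8 (median Malat1 share 0.285%) but 1 of the 9. In Control 1 the median Malat1 share was 4.07% just under the limit and 6.50% just above it. In Control 2 it was higher just under the limit than the 2.23% just above, and so was depth, at 3227 against 2465 UMIs. With at most 4 barcodes per sample and side, no step at the limit is read from these values.

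**Figure D1:**
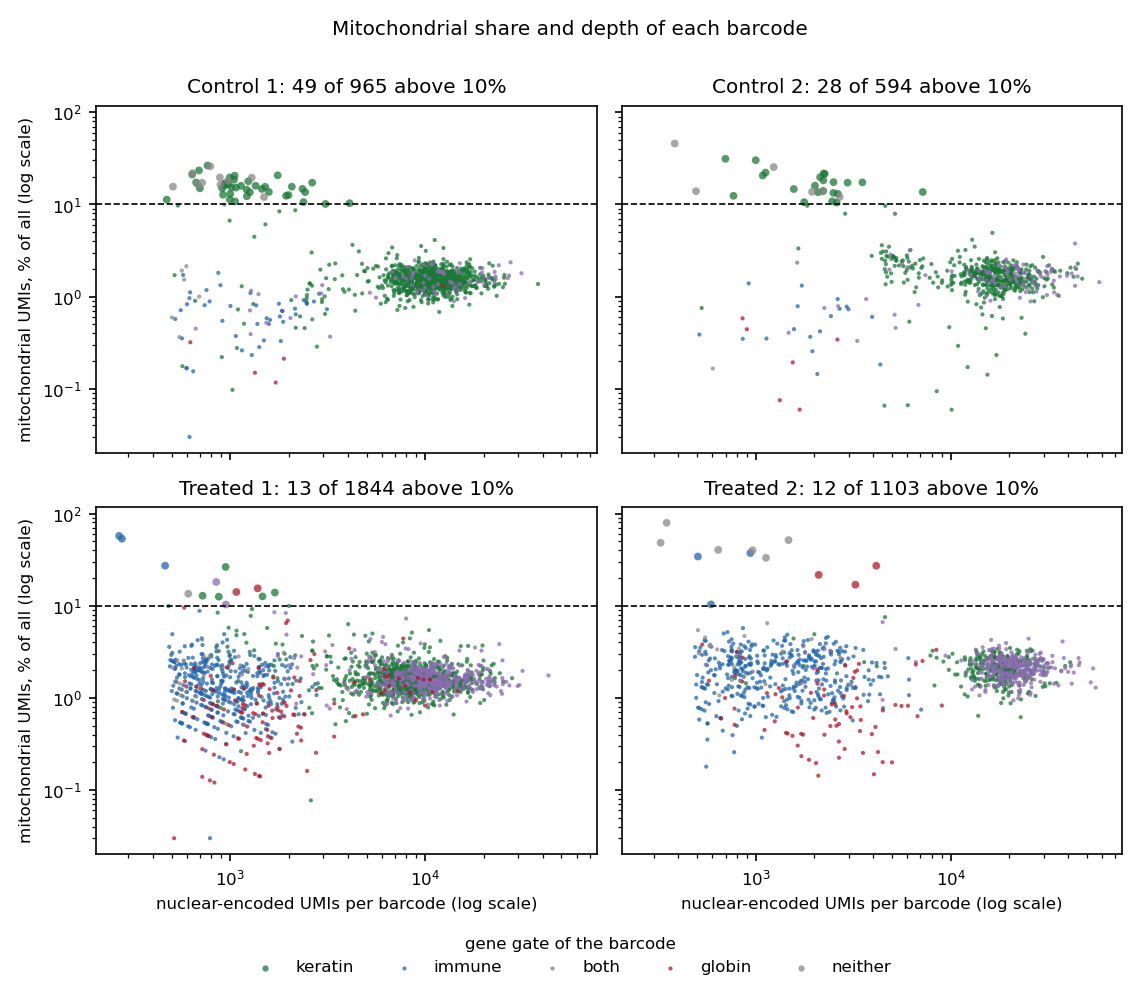
Share of UMIs on mitochondrial genes (vertical, log scale, with barcodes at 0 drawn at the lower edge) against nuclear-encoded UMIs (horizontal, log scale) for each barcode with at least 200 genes, 1 panel per sample, coloured by gene gate, with the 10% limit dashed and barcodes past it drawn larger. The 102 barcodes past the limit lie at lower depth than the main cloud of keratin-gated barcodes in each sample.

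The high share came mainly with few nuclear-encoded UMIs, and mitochondrial ones were higher as well. The median barcode past the limit held 1045, 2165.5, 873 and 951 UMIs from nuclear-encoded genes. The other barcodes held 10422, 16353.5, 7020 and 12653. Mitochondrial UMIs had medians of 211, 365.5, 187 and 568.5 past the limit and of 158, 264.5, 108 and 217 in the other barcodes, so every sample was somewhat higher in mitochondrial UMIs and many times lower in nuclear-encoded ones. The mixture of mitochondrial messages was alike on both sides. Mt-Co3, a subunit of cytochrome c oxidase and the most abundant of the 13, took 36.4%, 35.5%, 33.1% and 33.2% of the mitochondrial UMIs of the high-mitochondrial barcodes and 36.1%, 33.1%, 37.7% and 35.1% of those of the others. These barcodes held 7.04%, 6.72%, 1.25% and 2.93% of all mitochondrial UMIs of their samples and 0.760%, 0.726%, 0.107% and 0.183% of all UMIs.

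When each barcode was thinned to 500 nuclear-encoded UMIs, the median number of genes detected reached 401 and 389.5 in the controls and 393 in Treated 1, whereas the other barcodes had 341, 344 and 342. In Treated 2 the order turned, at 318 against 353. The mean difference over the 4 samples was 30.4 genes (exact permutation test of signs, p = 0.25, where 0.125 is the smallest possible), and it was 52.2 genes without Treated 2. Thinning left out 1, 2, 3 and 2 of the high-mitochondrial barcodes, which had fewer UMIs. Without thinning their medians were 758, 1271.5, 545 and 493 genes against 2745.5, 3567, 2219 and 3228.

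The cell kind of the barcodes was read from gene gates with a minimum of 3 UMIs, on 4 keratin genes (Krt7, Krt8, Krt18 and Krt19, filament proteins of simple epithelia), 17 immune genes and 4 globin genes, where over 10% of nuclear-encoded UMIs on globin genes made a barcode globin-led. In the controls, 39 of 49 and 22 of 28 passed the keratin gate, none passed the immune gate, and 10 and 6 passed neither. By nearest expression profile all 16 of those that passed neither were closest to the keratin-gated barcodes. The labels give lymphoma as the cell type, yet the 13 listed B cell genes and the listed T and NK cell genes had 0 UMIs in the high-mitochondrial barcodes of both controls, while Krt18 alone had 76 UMIs in Control 1 and 35 in Control 2. They are therefore called keratin-gated here and not lymphoma cells.

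The treated samples held a different mixture. In Treated 1, 5 of the 13 high-mitochondrial barcodes passed the keratin gate, 3 the immune gate, 2 both and 1 neither, and 2 were globin-led. In Treated 2, 0 of 12 passed the keratin gate, so that the share could be as high as 25% at the limit of 3 counts, 3 passed the immune gate, 6 passed neither and 3 were globin-led. The barcodes of Treated 2 that passed neither gate carried too few of these genes to be assigned by gate. By nearest profile 0 of all 12 of Treated 2 were closest to keratin-gated barcodes, 6 to globin-led ones, 3 to B cells and 3 to macrophages. Without Malat1, Neat1, Gm42418 and Gm26917, 2 of the 12 were closest to keratin-gated ones. The globin-led profile is a weak guide, as 20.1% of its references were recovered at 500 UMIs. The share of keratin-gated barcodes past the limit was 79.6%, 78.6%, 38.5% and 0%, and among the others it was 86.1%, 79.7%, 47.6% and 28.4%. It was lower past the limit by 11.3 points on average (exact permutation test of signs, p = 0.125, the smallest that 4 samples allow), but this difference moved to 32.5 points with the keratin and immune minimum at 1 UMI and to -46.3 points with it at 5, so its direction depends on the minimum. A doublet caller, Scrublet, marked 0 of the 102, against 35 (3.82%), 13 (2.30%), 4 (0.218%) and 19 (1.74%) of the other barcodes. With shares this low, 0 of 102 is not read as a difference. Of the 102 barcode sequences 42 also occurred in another sample, in none of which they were past the limit. Pairs of samples shared 60 to 359 barcodes, close to the 63.1 to 366 that even draws from 9216 combinations of barcode parts would give.

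**Figure D2:**
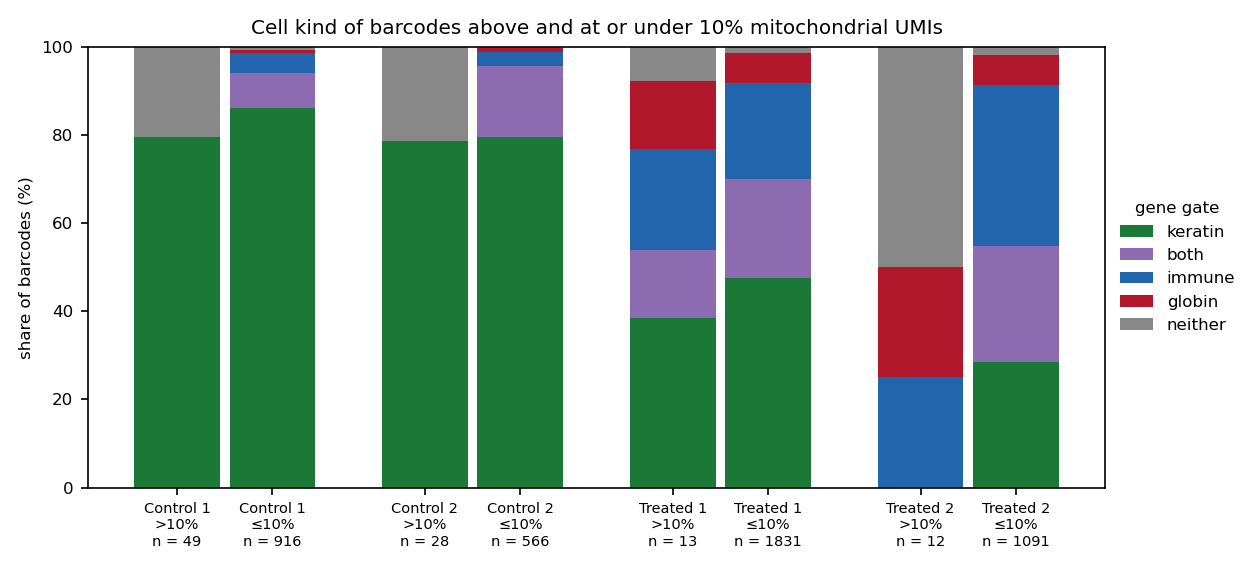
Share of barcodes (%) in each gene gate, with a pair of bars per sample for barcodes above 10% and at or under 10% mitochondrial UMIs and the number of barcodes under each bar. The controls are mostly keratin-gated on both sides, whereas the 12 high-mitochondrial barcodes of Treated 2 include 0 keratin-gated, 3 immune, 3 globin-led and 6 in neither gate.

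Because cell kinds differ between samples, the main comparison was made within keratin-gated barcodes, between the 66 past the limit and those at or under it, in the 3 samples with at least 5 on each side (39 barcodes in Control 1, 22 in Control 2 and 5 in Treated 1). UMIs of nuclear-encoded genes were summed per sample and side and tested with the edgeR quasi-likelihood test, with the sample as a block and Benjamini-Hochberg adjustment over 9940 genes. Genes called higher numbered 590 (5.94% of those tested) and genes called lower numbered 402 (4.04%), and the median log2 fold change of all genes was 0.32. Of the calls 59.5% were higher, which turned to 13.7% when TMM scaling factors were taken from every tested gene (median -0.36) and to 85.7% when totals of nuclear-encoded UMIs were used (median 0.76), so directions are read against the median of all genes. The calls rested on the 2 controls. On these alone 663 genes were called higher and 535 lower, whereas without Control 1 there were 0 higher and 0 lower (352 at an unadjusted p under 0.05) and without Control 2 there were 0 higher and 31 lower (639). DESeq2 on all 3 samples called 169 higher and 230 lower.

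Nuclear RNA was higher in these barcodes. Levels are given as CPM, the UMIs of a gene or list scaled to 1000000 nuclear-encoded UMIs of the summed barcodes. Malat1 (mouse build mm10, GENCODE annotation, chr19:5795690-5802672, minus strand) reached 48690 CPM in Control 1 against 5313 in the other keratin-gated barcodes and 43960 against 4286 in Control 2, but 6145 against 4040 in Treated 1. Both controls thus stood far above their own other barcodes and Treated 1 stood only slightly above. The log2 fold change over the 3 samples was 1.95 (SE 0.37, adjusted p = 1.7e-05), and it was 2.88 on the controls alone. With the limit at 20% it was 0.60 and not called (adjusted p = 0.90). That fit held 5 barcodes of Control 1 and 6 of Control 2 past the limit, and its median over all genes was -7.03. The median Malat1 shares of these barcodes were 3.13% and 2.06%. Per barcode the median Malat1 share was 4.25% in Control 1, ranging from 0.143% to 13.8%, 4.37% in Control 2, from 0.184% to 8.01%, and 0.139% in Treated 1, from 0.106% to 1.98%. The medians of the other keratin-gated barcodes were 0.470%, 0.361% and 0.346%, so the typical keratin-gated barcode of Treated 1 past the limit was not higher in Malat1.

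Neat1 (chr19:5824708-5845478, minus strand) was higher in every one of the 3 samples, at 294 against 38 CPM in Control 1, 242 against 34 in Control 2 and 351 against 50 in Treated 1 (log2 fold change 2.42, SE 0.43, adjusted p = 3.2e-06), although the Treated 1 level rests on 2 UMIs. Pvt1, a noncoding RNA beside Myc, rose from 128 to 643, from 149 to 464 and from 157 to 351 CPM (log2 fold change 1.45). Of 7 tested RNAs of the list of nuclear-retained RNAs 6 were called higher and 0 lower, with a median of 1.89 against 0.32 for all genes. With TMM factors from every tested gene 2 of the 7 were called. Gm42418, also on this list, is annotated over a copy of the ribosomal RNA repeat (chr17:39846958-39848788) and was not called (log2 fold change 0.11, SE 0.31). Its levels were 8584 against 4438, 4862 against 4380 and 19136 against 8147 CPM. Gm26917, annotated beside it (chr17:39843013-39846341), was 1 of the 6 called higher (1.72, SE 0.45). Whether counts of Gm26917 come from nuclear-retained or from ribosomal RNA was not tested.

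Cytosolic messages were lower. Ribosomal protein genes together gave 155078 CPM in Control 1 against 327268, 180964 against 330324 in Control 2 and 213834 against 311651 in Treated 1. All 3 samples lay lower, and 74 of 81 tested ribosomal protein genes were called lower and 0 higher, with a median of -1.55. Rpl32, a protein of the large ribosomal subunit, fell from 8089 to 2481, from 8316 to 2804 and from 7536 to 3336 CPM (log2 fold change -2.12, SE 0.33, adjusted p = 1.1e-07). Rps12 of the small subunit was called lower as well (-2.09), yet in Treated 1 its levels were 4565 and 4848.

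Of 18 abundant cytosolic messages 16 were called lower and 0 higher, with a median of -1.66. Actb, the cytoskeletal beta-actin, stood at 1158 against 5192 CPM in Control 1, 1170 against 4234 in Control 2 and 3511 against 5536 in Treated 1 (log2 fold change -2.26, SE 0.33, adjusted p = 2.4e-08). Gapdh, a glycolytic enzyme, stood at 1452 against 4857, 1654 against 3864 and 1756 against 5017 (-2.06, SE 0.33). Tpt1, a translationally controlled calcium-binding protein, and Ldha, lactate dehydrogenase, fell by 1.88 and 1.95 on the log2 scale. Of 19 tested glycolysis and hypoxia genes 9 were called lower and 1 higher (median -0.62), and the gene called higher was Car9, a hypoxia-induced carbonic anhydrase. Without Control 1 none of these list members was called. Both lists kept their direction under the other scalings. Ribosomal protein genes had 80 called lower and 0 higher with TMM factors from every tested gene (median -2.25) and 63 and 0 with totals (median -0.99), and the abundant cytosolic messages had 18 and 12 called lower and 0 higher. The glycolysis and hypoxia genes were divided with totals, with 5 lower and 3 higher.

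Keratin-gated barcodes of the controls were also divided by range of mitochondrial share. The median Malat1 share was 0.444%, 0.430% and 0.335% in barcodes with up to 1%, 1% to 2% and 2% to 5% mitochondrial UMIs. It was 2.49% in the 9 barcodes between 5% and 10%, and then 4.74%, 5.31% and 3.13% between 10% and 15%, between 15% and 20% and past 20%. Ribosomal protein genes took 32.5%, 32.9% and 33.8% of nuclear-encoded UMIs in the first 3 of these ranges, 21.2% between 5% and 10%, and 16.6%, 15.9% and 18.5% past the limit. The change began between the range of 2% to 5% and that of 5% to 10%, and both shares moved further in the range of 10% to 15%. From there on these values had no further order. Between 2% to 5% and 5% to 10% the median depth went from 11117 to 1837 nuclear-encoded UMIs. The part of depth in the change was not tested. The few control barcodes between 5% and 10% thus lay between those under 5% and those past 10%, and these ranges are a description with no test.

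**Figure D3:**
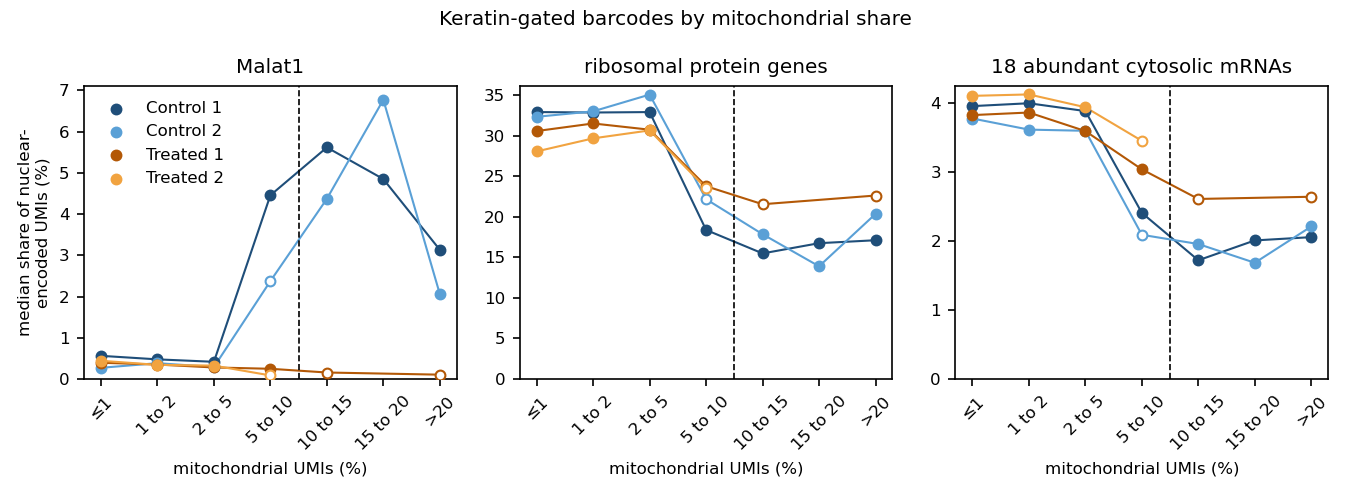
Median share of nuclear-encoded UMIs (%) on Malat1, on ribosomal protein genes and on 18 abundant cytosolic messages in keratin-gated barcodes, by range of mitochondrial share, 1 line per sample, with the 10% limit dashed and open circles for fewer than 5 barcodes. In the controls the Malat1 share goes from under 0.6% in the ranges up to 5% to 2.06% or more past the limit, while Treated 1 stays low.

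A set of other keratin-gated barcodes chosen for depth was compared as well, built from the 5 nearest in nuclear-encoded UMIs in the same sample for each barcode past the limit (71 distinct barcodes). The match was loose in the controls, where few such barcodes are that shallow. Their mean was 2200 nuclear-encoded UMIs in the 39 barcodes of Control 1, 4568 in the 13 of Control 2 and 1255 in the 19 of Treated 1, against 1395, 2253 and 1139 past the limit. Against these, 99 of 1110 genes were called higher (8.92%) and 124 lower (11.2%), and 121 of those lower genes and 76 of those higher were among the calls already given. Their Malat1 levels were 11621, 5423 and 5956 CPM, so both controls stayed above their depth-matched barcodes and Treated 1 was level with its own (log2 fold change 1.75, adjusted p = 0.068). The list of nuclear-retained RNAs, summed, was at 16959 and 8976 CPM in the depth-matched barcodes of the controls, under their levels of 58818 and 49831 past the limit, but in Treated 1 it was at 96464 against 26510, the opposite direction. Gm42418 made up most of the sum in Treated 1, with 109 of 151 UMIs past the limit and 2123 of 2300 in the depth-matched barcodes. Of 80 tested ribosomal protein genes 51 were called lower and 0 higher (median -1.07, against -0.08 for all genes). Their summed level was 352790 and 389626 CPM in the depth-matched barcodes of the controls, about that of the deep ones, but 210460 in Treated 1, where the barcodes past the limit had 213834. Shallow keratin-gated barcodes of Treated 1 thus had few ribosomal protein messages on both sides of the limit.

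Long genes took a larger share. Genes were divided into 4 groups of equal size by the length of their genomic span in GENCODE, and the group with the longest spans, over 54.3 kb, held 21.5% of the nuclear-encoded UMIs of keratin-gated barcodes past the limit in Control 1, 17.7% in Control 2 and 17.4% in Treated 1. The other keratin-gated barcodes had 7.39%, 7.74% and 7.97%, and the depth-matched ones 6.39%, 5.13% and 14.5%. Both controls thus lay above both sets of other barcodes, while Treated 1 lay nearer to its depth-matched barcodes than to the rest. The median log2 fold change rose over these groups from -0.58 through -0.04 and 0.49 to 1.15, with 36, 67, 114 and 373 genes called higher and 266, 100, 27 and 9 called lower. Among protein-coding genes with a mean of at least 50 CPM the medians were -0.85, -0.52, 0.18 and 1.29. Ahnak, a very large scaffold protein encoded by a long exon, rose from 207 to 2867, from 190 to 1533 and from 270 to 1053 CPM (log2 fold change 2.61, SE 0.32, adjusted p = 7.8e-12), so length of the message and of the span cannot be told apart here. Whether reads in introns were counted was not given in the sources used here.

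**Figure D4:**
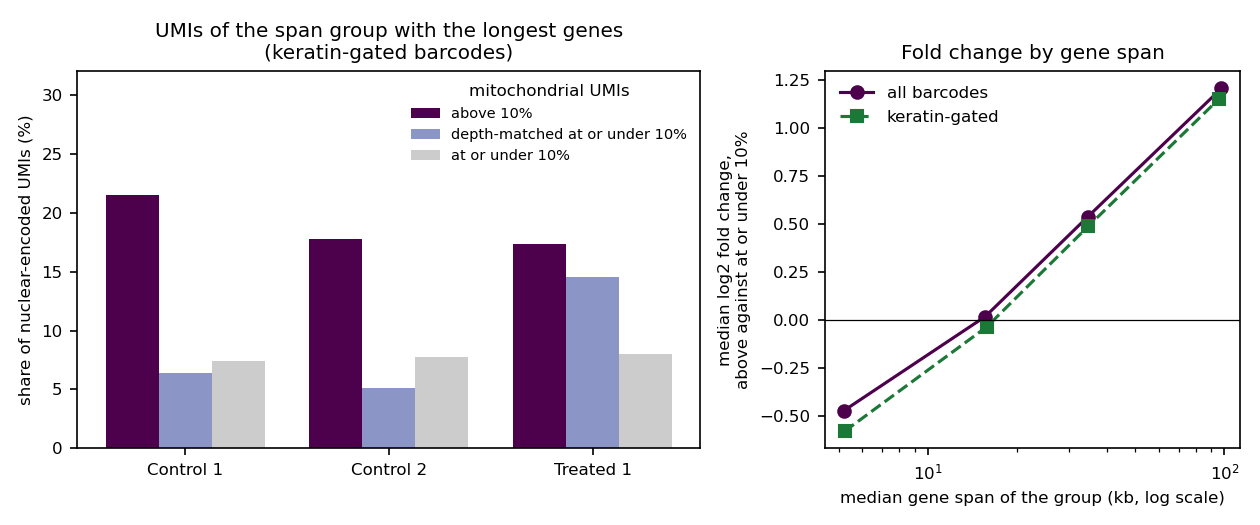
Left, share of nuclear-encoded UMIs (%) from the group of genes with the longest genomic span in keratin-gated barcodes above 10% mitochondrial UMIs, in depth-matched others and in all others, by sample. Right, median log2 fold change (above against at or under 10%) of each of the 4 span groups against its median span in kb (log scale), which goes from -0.58 to 1.15 in keratin-gated barcodes.

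The keratin genes of the gate were themselves lower or not called. Krt18 stood at 1287 against 3065 CPM in Control 1, 605 against 1637 in Control 2 and 1756 against 2468 in Treated 1 (log2 fold change -1.72, SE 0.33, adjusted p = 3.0e-05). Krt7 was called lower as well (-1.23), while Krt8 (-0.88, adjusted p = 0.065) and Krt19 (-0.23, adjusted p = 0.70) were not. Krt19 levels were 809 against 729, 625 against 392 and 351 against 619, higher in the controls and lower in Treated 1. As the gate needs keratin UMIs, shallow barcodes enter it only where keratins are well represented.

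Heat-shock genes did not rise as a group. Of 17 tested heat-shock genes 4 were called lower and 0 higher, with a median of -0.77, or -0.47 with the 2 genes that had no UMI past the limit set at the bound of 3 counts. Summed, they gave 5422 CPM against 11195 in Control 1, 5871 against 11315 in Control 2 and 10358 against 12176 in Treated 1. Hsp90ab1, the constitutive HSP90 chaperone, fell by 1.84 on the log2 scale and Hspa8, a constitutive HSP70 chaperone, by 1.50. Hsp90aa1, the inducible HSP90 chaperone, was called lower (-1.43, SE 0.33, adjusted p = 0.00068) with 662 against 2055 and 1110 against 2379 CPM in the controls, while in Treated 1 it stood at 3687 against 2394. With the depth-matched barcodes 0 of 7 tested heat-shock genes were called (median -0.38), in an edgeR fit in which 391 of all 1110 genes had an unadjusted p under 0.05.

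Of 20 tested genes for proteins of the endoplasmic reticulum 0 were called in either direction, with a median of -0.37 (3 were called higher with totals and 7 lower with TMM factors from every tested gene), and their summed level was 4136 against 3799 CPM in Control 1, 5003 against 4028 in Control 2 and 4916 against 3910 in Treated 1. Hspa5, the main chaperone of that organelle, whose message is bound to its membrane, had 919 against 621, 1311 against 715 and 1053 against 745 (log2 fold change 0.15, adjusted p = 0.81), higher in CPM in each sample but not called. Against depth-matched barcodes it was called higher (1.68, adjusted p = 0.0051), and also when scaled to totals (0.70, adjusted p = 0.040). Immediate early genes, which respond to dissociation of tissue, had 1 of 19 called higher and 0 lower, with a median of -0.09. Among all genes 5.94% were called higher and 4.04% lower. Summed, the immediate early list was higher in both controls, at 1636 against 1371 CPM in Control 1 and 2260 against 1304 in Control 2. In Treated 1 it was lower, at 527 against 1233, on 3 UMIs past the limit. The called gene was Nr4a1, an orphan nuclear receptor, with 4, 4 and 0 UMIs past the limit against 34, 28 and 30 in the far deeper others. Genes of the integrated stress response had 0 of 17 called (median -0.20, or -0.13 with 1 gene at its bound).

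Genes of cell death are set beside the 5.94% called higher and 4.04% called lower among all genes. Of 21 caspase and lytic death genes 1 was called higher and 1 lower, and of 13 genes of the Bcl2 family 0 higher and 2 lower. Of 10 genes on the list of p53 and its targets 1 was called higher and 1 lower. Bax is on this list and on that of the Bcl2 family. The genes called higher were Apaf1, the adaptor of the apoptosome, with 2, 4 and 0 UMIs past the limit, and Trp53, the gene of p53 itself and not a target, with 3, 8 and 0. Those called lower were Cycs (cytochrome c, -1.40), Bax, a pore-forming protein of the outer mitochondrial membrane (-1.59), and Bnip3, a receptor of mitophagy (-1.92). Bax levels were 92 against 218 CPM in Control 1, 61 against 194 in Control 2 and 351 against 212 in Treated 1, so Treated 1 went the other way on 2 UMIs.

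Nuclear-encoded messages for mitochondrial proteins did not follow the mitochondrial ones. Of 82 nuclear genes of oxidative phosphorylation 25 were called lower and 2 higher, with a median of -0.87. Their summed level, however, was 53102 against 57246 CPM in Control 1, 64255 against 55642 in Control 2 and 39677 against 54244 in Treated 1, so the controls moved in opposite directions. With totals as scaling 14 were called lower and 6 higher (median -0.36), against 54 and 1 with TMM factors from every tested gene. Cox6a1, a subunit of cytochrome c oxidase, was 1 of the 2 called higher, from 264 to 1268, from 286 to 1372 and from 215 to 702 CPM (log2 fold change 1.69, SE 0.31, adjusted p = 1.0e-05), whereas Atp5e (-1.57), Uqcr10 (-1.60) and Ndufs7 (-1.59), of the ATP synthase, complex III and complex I, were called lower. Genes of the mitochondrial ribosome had 11 of 75 called lower and 0 higher (median -0.93, or -0.92 with 1 gene at its bound), among them Mrpl30 and Mrpl12. Genes that keep up the mitochondrial genome had 2 of 14 called higher, Lrpprc, which stabilises mitochondrial messages (1.91), and Polg, the mitochondrial DNA polymerase (2.23), but Polg turned to -0.18 without Control 1. Genes of mitophagy and mitochondrial shape had 4 of 18 called lower, with Fis1, a fission factor, Vdac1 and Vdac2, channels of the outer membrane, and Bnip3. Mitochondrial chaperones and proteases had 2 of 13 called lower, Hspd1 (-0.98) and Grpel1 (-1.85), and Hspd1 was 0.21 against depth-matched barcodes.

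**Figure D5:**
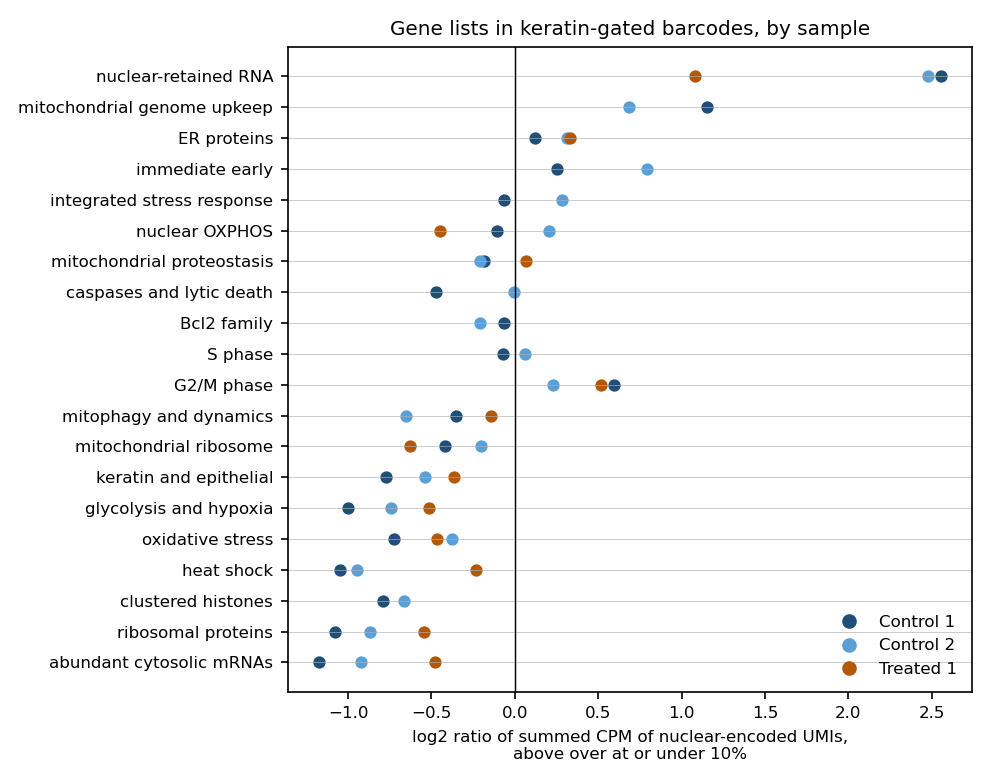
Log2 ratio of the summed level of each gene list (CPM) in keratin-gated barcodes, above over at or under 10% mitochondrial UMIs, 1 point per sample, for sums of at least 10 UMIs past the limit. Nuclear-retained RNA is higher in each of the 3 samples (2.56, 2.48 and 1.08, the last mostly from Gm42418) and ribosomal protein and abundant cytosolic messages are lower in each.

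Cell cycle genes were mixed. Of 20 genes of G2 and M phase 3 were called higher and 1 lower, beside 5.94% and 4.04% of all genes, and of 20 S phase genes 0 were called. The list medians were -0.51 and -0.48 (the latter -0.43 with 1 gene at its bound) against 0.32 for all genes. In each list 16 of the 20 genes lay below that median. Summed, the G2 and M list was nevertheless higher, at 4062 against 2686 CPM in Control 1 and 3228 against 2751 in Control 2. In Treated 1 it was at 3687 against 2574, on 21 UMIs past the limit. The summed S phase list was nearly level, at 1195 against 1253, 1412 against 1355 and 1404 against 1309 CPM, the last on 8 UMIs. Mki67, a proliferation marker encoded by a large message, rose from 80 to 607, from 83 to 363 and from 111 to 527 CPM (log2 fold change 2.04, SE 0.35, adjusted p = 2.0e-06), and Cenpe and Cenpf, large proteins of the kinetochore, by 1.53 and 1.08 on the log2 scale. With the limit at 20% none of these 3 was called and Mki67 (-0.52) and Cenpf (-1.38) turned, in a fit that called 0 genes higher and 256 lower and in which the median of all genes was -7.03. Ube2c, a small ubiquitin-conjugating enzyme of mitosis, fell by 1.26. Clustered histone genes had 3 of 42 called lower and 0 higher (median -1.18, or -0.03 with 14 genes without a UMI past the limit at their bounds), with Hist1h1b and Hist1h2ae among them. Genes of oxidative stress defence had 3 of 16 called lower, which were Gpx1, Prdx1 and Txn1.

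Among all genes called with the same direction in each of the 3 samples, the largest increases were those of Arg1, Pate2, Nbeal2, Dnhd1 and Cblb (log2 fold changes 4.94, 3.79, 3.63, 3.63 and 3.34). These had between 1 and 6 UMIs in each sample past the limit, so the values are loosely determined. The largest decreases were those of Nrbp1, Pycrl, Eef1akmt4, Rab1a and Mtfr1l, which had 0 UMIs past the limit. Against a bound of 3 counts over the 3 samples they were at least 2.17-fold, 2.06-fold, 1.72-fold, 1.65-fold and 1.57-fold lower in CPM.

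Over all barcodes of the 4 samples, regardless of gate, 939 of 10990 genes were called higher (8.54%) and 406 lower (3.69%), with a median of 0.39. Of the higher genes 538 were shared with the keratin-gated comparison, 57.3% of the first list and 91.2% of the second, and of the lower genes 345 were, 85.0% and 85.8%. Without Control 1 the counts dropped to 61 and 59 and without Control 2 to 132 and 137. Malat1 stood at 47404, 42006, 8645 and 12731 CPM past the limit and at 5342, 4417, 4211 and 4496 in the others, higher in each of the 4 samples (log2 fold change 2.00, SE 0.27, adjusted p = 5.7e-10). Ribosomal protein genes gave 155649, 187781, 165211 and 121581 against 326620, 328055, 304200 and 293459 CPM, and 72 of 81 were called lower. The genes with the longest spans held 21.6%, 17.04%, 15.3% and 14.7% of nuclear-encoded UMIs against 7.40%, 7.82%, 8.27% and 9.52%.

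The immune and globin genes that were called higher in this comparison of all barcodes came from the treated samples. Cd79a, a subunit of the B cell receptor, had 0, 0, 0 and 36 UMIs past the limit, and S100a9, a granule protein of neutrophils, had 0, 0, 28 and 3. Cd79a and S100a9 both turned lower when the other barcodes were matched for depth (-0.94 and -3.13), as did Ptprc, the leukocyte marker CD45 (-1.76), and the globin gene Hbb-bs (-3.08). Pan-immune genes together gave 285, 137, 4150 and 11025 CPM past the limit and 9894, 10344, 18985 and 14920 in the depth-matched barcodes. All other barcodes had 549, 519, 1565 and 1728. The depth-matched set thus held more immune RNA, and depth and cell kind cannot be told apart in these turns. Gm42418 stood at 26887 and 76202 CPM in the high-mitochondrial barcodes of Treated 1 and Treated 2 against 10171 and 7226 in the others, but 48196 and 33000 in depth-matched ones, and its direction turned as well (1.13 to -0.35). In a single barcode of Treated 2, 46.4% of nuclear-encoded UMIs fell on Gm42418.

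The high-mitochondrial barcodes of treated and control samples were compared with each other over 524 genes, the rest being too sparse. Of these 35 were called higher in SP11 (6.68%) and 14 lower (2.67%), and for 317 genes (60.5%) the samples of the groups did not overlap. Highest were globin genes, with 11, 4, 744 and 2835 UMIs of Hbb-bs and 12, 2, 622 and 1916 of Hba-a1. Tyrobp, an adaptor of myeloid cells, had 1, 0, 17 and 5 UMIs, and Tmsb4x, an actin-binding peptide abundant in leukocytes, had 111, 239, 605 and 2132 CPM (log2 fold change 3.72, SE 0.62). Actb was higher too, at 1170, 1111, 4236 and 4629 CPM (2.57, SE 0.36, adjusted p = 0.00019).

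Lower in SP11 were Cox5b, a subunit of cytochrome c oxidase, at 1865, 1897, 259 and 122 CPM (-2.80, SE 0.51, adjusted p = 0.0015), Ndufb9, a subunit of complex I, at 3209, 3828, 1210 and 183 (-1.96), and Rhox5, a homeobox gene, at 1438, 1487, 173 and 61 (-3.17). Lgals3, a galectin, was called lower as well (-2.00). Nuclear genes of oxidative phosphorylation had 7 of 52 called lower and 0 higher, and ribosomal protein genes had 9 of 79 higher and 1 lower. Malat1 was at 47404, 42006, 8645 and 12731 CPM, lower in both treated samples, and was not called (-1.40, adjusted p = 0.26). The change past the limit, above against at or under 10%, was also compared between the groups over 10990 genes, and it was larger in SP11 for 11 genes (0.1%) and smaller for 12 (0.109%), 0.209% in all. Among the larger were Hbb-bs, Tmsb4x and Actb, and among the smaller Cox5b, Ndufb9, Rhox5 and Malat1. Since 61 of the 77 control barcodes and 5 of the 25 treated ones were keratin-gated, treatment and cell kind cannot be told apart in these values. For SP11 against control past the limit, DESeq2 called 19 genes higher and 1 lower. For the difference of changes between the groups it called 6 larger and 11 smaller.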

How the data were processed

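Single-cell RNA sequencing (10x Chromium 3′ chemistry) of 4 samples was analysed, 2 control and 2 SP11-treated. The deposited values are raw UMI counts per gene and barcode, which the authors made with Cell Ranger 7.1.0 per the file headers, with genome build mm10 per the labels' processing notes, although the paper's text names hg38. Cells called by that program were deposited without further normalization. The samples held 9646197 to 13632163 UMIs.

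Members and gene lists were chosen with earlier results of these data known. Barcodes with at least 200 genes were split at 10% mitochondrial UMIs. Raw counts of nuclear-encoded genes were summed per sample and side and tested in edgeR 4.0.16 (R 4.3.3) by its quasi-likelihood test after filterByExpr, with the sample as a block for comparisons within samples and p-values adjusted after Benjamini-Hochberg (threshold 0.05). TMM factors were taken from genes with a mean of at least 50 CPM, a choice made after seeing the data, because in data simulated without change the factors from every tested gene shifted the fold changes further. The fits were tested on simulated counts with known changes. CPM levels refer to summed nuclear-encoded UMIs.

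Gates used raw UMIs, and nearest profiles used all nuclear-encoded UMIs outside the gate genes, without thinning. When the reference barcodes were thinned to 500 UMIs, 98.9% of keratin-gated ones were recovered and 20.1% of globin-led ones. As these barcodes also made the profiles, that is no independent check. Spans came from GENCODE for 9936 of 9940 and 10985 of 10990 tested genes. Scrublet of scanpy 1.11.5 called doublets, which were kept. Genes named are those of the gates, Malat1, Neat1, Gm42418 and Gm26917, up to 4 called genes per list with the smallest p, and up to 5 called genes per direction with the largest change of the same sign in every sample. Other genes of a list named with its count were taken after their values were seen. Shares have exact Clopper-Pearson intervals at 95% (scipy 1.17.1). Alternatives were DESeq2 1.42.0, no filter on low counts, other limits and gates, thinned counts, depth-matched references, no sample block, the replicate number as a block, doublets left out, each sample left out, and, chosen after seeing the data, other scalings and samples of 1 group.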

Additional observations from a re-analysis of the deposited data

Results flagged for a closer look

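In 23 of 10990 genes (0.209%) the change between barcodes above and at or under 10% mitochondrial UMIs differed between SP11 and control samples (interaction term of the edgeR quasi-likelihood test, Benjamini-Hochberg adjusted p under 0.05). Of these, 11 had a larger log2 change in SP11 (0.1% of those tested) and 12 a smaller one (0.109%). The values in this paragraph are differences of log2 fold changes, SP11 minus control. The globin genes Hbb-bs (5.67), Hba-a1 (5.24) and Hbb-bt (3.93) had a larger change in SP11, as had Ftl1-ps1, a ferritin pseudogene whose reads may be shared with Ftl1 (4.44), Tmsb4x (2.54), Cd74, the invariant chain of MHC class II (2.88), Gm42418 (1.88) and Actb (1.81). Actb did not rise in any sample, at 1170 against 5259, 1111 against 4307, 4236 against 5893 and 4629 against 4935 CPM, controls first. Cd74 rests on Treated 2, where it had 107 UMIs past the limit against 1 in Treated 1, and it was -2.45 without that sample. Ndufb9 (-2.61), Cox5b (-3.20), Cox4i1 (-1.90) and Cox8a (-1.90), of the respiratory chain, were smaller in SP11, as were Rhox5 (-3.57), Rpl18 (-2.00), Lgals3 (-2.56), Malat1 (-1.90), Luc7l2, a splicing factor (-4.26), Wfdc2, a secreted epithelial protein (-2.03), and Plec, a large linker of the cytoskeleton (-2.16). Malat1 stood at 47404 and 42006 CPM past the limit in the controls and at 8645 and 12731 in the treated samples, against 4211 to 5342 in the other barcodes.

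In 4 of the 23 genes a whole group had 0 UMIs past the limit, so the fitted values are no measure of size. Hba-a2 (14.18), S100a9 (12.44) and Srgn, a proteoglycan of blood cells (12.40), had 0 UMIs in both controls past the limit and 12 and 42, 28 and 3, and 4 and 10 in the treated samples. Gnl3, a nucleolar GTPase (-14.33), was at 0 UMIs in both treated samples past the limit, with 40 in Control 1 and 37 in Control 2. Without Control 2, 0 of the 23 genes were called in either direction (207 genes at an unadjusted p under 0.05), and without Control 1, 3 were called higher and 0 lower. The gate makeup differs between the groups, and its part in these differences cannot be told apart from treatment.

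Among barcodes with fewer than 200 genes, which no comparison used, 6 of 380 in Treated 2 had more than 10% mitochondrial UMIs (1.58%, 95% exact Clopper-Pearson interval 0.582% to 3.40%). In the controls there were 0 of 12 and 0 of 1 such barcodes, and in Treated 1 there were 0 of 433, so that the share could be as high as 0.693% at the limit of 3 counts.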

How the results depend on the processing

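Counts are given as higher and lower, or for 1 direction where only that direction is named. Over all barcodes (939 and 406) DESeq2 called 452 and 276, and each sample left out in turn gave 61 to 758 and 59 to 437. A limit of 20% gave 43 and 79, thinning to 500 UMIs 44 and 573, and depth-matched references 172 and 257. The treated samples alone gave 0 and 0 (617 genes at an unadjusted p under 0.05). Totals as scaling gave 1295 and 201, and TMM factors from every tested gene 156 and 1443. Testing only genes with a mean of at least 50 CPM gave 499 and 464. Over keratin-gated barcodes (590 and 402) DESeq2 gave 169 and 230, and each sample left out in turn 0 to 663 and 0 to 535. A limit of 20% gave 0 and 256 (963 at an unadjusted p under 0.05), thinning 42 and 243, and depth-matched references 99 and 124. No sample block gave 1009 and 652, and a gate minimum of 5 UMIs 250 and 485. Totals gave 1457 and 243, and factors from every tested gene 177 and 1115. For SP11 against control (35 and 14) DESeq2 gave 19 and 1, no filter 75 higher, leaving out a sample 14 to 35 and 2 to 20, the replicate block 18 and 7, a minimum of 500 genes 8 and 2, and totals 5 and 2. Same-numbered samples did not deviate together (r = -0.071 over 524 genes). With 2 samples per group this is a single value, which cannot decide whether same-numbered samples were handled together. For the difference of changes (11 and 12) DESeq2 gave 6 higher and leaving out a sample 0 to 14 and 0 to 11. The difference in the share of high-mitochondrial barcodes was -2.02 points at a limit of 15% and -0.474 at 20%, and that in the keratin-gated share was 32.5 points at a minimum of 1 UMI and -46.3 at 5. Depth-matched and thinned settings test fewer genes, and over all barcodes the depth-matched set also held more immune RNA. Single-sample exclusions use fewer samples, and other causes were not tested.

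Of 1599 values under alternatives, 1111 kept direction and side of the threshold, 426 lost and 12 gained significance, and 50 changed sign. In keratin-gated barcodes the sign changed at a limit of 20% for Pvt1 (-0.87), Gm26917 (-1.18), Apaf1 (-7.45), Lrpprc (-0.0057), Mki67 (-0.52), Cenpf (-1.38), Dnhd1 (-6.96) and Cblb (-7.41), for Hspd1 against depth-matched barcodes (0.21) and for Polg without Control 1 (-0.18, and up to 2.47 over single exclusions). Over all barcodes it changed with thinning for Gm42418 (-0.34), Ptprc (-2.55), Cd52 (-2.26), Tyrobp (-1.72), Cd79a (-2.05), Cd79b (-1.08), Lyz2 (-1.60), S100a9 (-4.81), Hba-a1 (-1.08), Hba-a2 (-0.97) and Hbb-bs (-1.43). Against depth-matched barcodes it changed for Gm42418 (-0.35), Krt7 (0.18), Krt8 (0.30), Ptprc (-1.76), Cd52 (-2.98), Tyrobp (-3.30), Cd79a (-0.94), Cd79b (-0.64), Lyz2 (-3.70), S100a9 (-3.13), Hba-a1 (-2.76), Hba-a2 (-1.59), Hbb-bs (-3.08) and Hbb-bt (-1.50). On the controls alone it changed for Cd52 (-8.87), Tyrobp (-1.80), S100a9 (-9.65), Hba-a1 (-1.62), Hba-a2 (-10.42), Hbb-bs (-2.25) and Hbb-bt (-0.25). S100a9 also changed with DESeq2 (-0.90), without Treated 1 (-1.37, and up to 2.38 over single exclusions) and at 500 genes (-1.32), Hba-a1 at a limit of 20% (-0.10), Hbb-bs without Treated 2 (-0.14, and up to 2.09 over single exclusions), at a limit of 20% (-0.44) and with factors from every tested gene (-0.012), and Cd74 in the difference of changes without Treated 2 (-2.45, and up to 4.27 without Treated 1).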
